A study of Homo sapiens with 4 samples.

Results

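Fibronectin (FN1) and 8 further glycoproteins and proteoglycans of the extracellular matrix were followed in A549 cells, a human lung adenocarcinoma line, on 4 two-colour cDNA arrays. On each array RNA of a culture that overexpressed the microRNA gene let-7a-3 was set against RNA of a parental culture. The genes VCAN, THSD4, MFGE8, THBS1, TNC, SPARC, BGN and DCN completed the set. The members were chosen by name with the mean log ratios of these same arrays known, so those means are a description and no test is given for them. A gene could be represented by several cDNA clones, each a probe of its own, and a clone was counted only where the platform annotation gave it exactly 1 symbol. By that rule 18 of 26629 probes belonged to the set, covering 8 of the 9 genes. FN1 had 4 clones, TNC had 3, VCAN, THSD4, MFGE8, THBS1 and DCN had 2 each, and BGN had 1. SPARC had 0, because its clone was also assigned to another gene, and 1 clone each of VCAN and DCN was left out for the same reason.

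The cultures were grown without treatment in serum-containing medium, and the control was the untransfected parental line, so transfection and selection are not separated from let-7a-3 itself. How many transfected lines were used is not stated in the labels, and p-values cover only the spread between these arrays. Read from the numbering of the RNA sources in each channel, the dyes were exchanged between arrays 1 and 3 on one side and arrays 2 and 4 on the other. The labels do not state which source numbers belong to which culture. Values are log ratios as deposited. The base of the logarithm, the channel in the numerator and any turning of the swapped arrays are not stated, so no fold is stated and a positive value cannot be assigned to either culture. The mean over the 4 arrays is called the shared component below. The part that changes sign with the dye orientation, given with the sign of arrays 1 and 3, is called the alternating component. Which of the components holds the effect of let-7a-3 and which that of the dyes cannot be told apart from the labels. Array medians lay between -0.0022 and 0.017 and standard deviations over probes between 0.173 and 0.193. Pearson's r across probes, which are not independent replicates, was 0.43 and 0.56 within an orientation and between -0.16 and 0.055 across orientations. Ratios hold no expression level, so the identity of the cells could not be checked from their markers.

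Matrix glycoproteins and proteoglycans are secreted proteins that fill the space between cells, link collagen and other fibres to cell-surface receptors, and bind growth factors. Fibronectin is assembled into fibrils by integrins and is a classical gene of the mesenchymal state. Proteoglycans such as versican carry long sulphated sugar chains that hold water and proteins, while matricellular proteins such as thrombospondin 1 and tenascin C change how cells adhere rather than building the fibres. A microRNA lowers the output of messenger RNAs that pair with its seed, bases 2 to 8. The sequence is shown because it is what the compared cultures differ in by design, with the seed in capitals. The RefSeq table (GRCh38.p14) lists it identically for 3 loci, and the let-7a-3 copy lies at chr22:46112752-46112773 on the plus strand.

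hsa-let-7a-5p: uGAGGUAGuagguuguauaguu

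Of the 18 member clones, 5 had a mean log ratio of at least 0.5 in size with 1 sign on all 4 arrays. They were 1 clone each of FN1 and MFGE8 on the negative side, and 1 clone of THSD4 and both clones of VCAN on the positive side. Over all 26629 probes 132 met the same description (0.496%). The other 13 clones had means between -0.21 and 0.12. The median size of the mean was 0.10 over the 18 clones and 0.051 over all probes. Since the members were named with these means known, nothing is read from that difference.

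**Figure D1:**
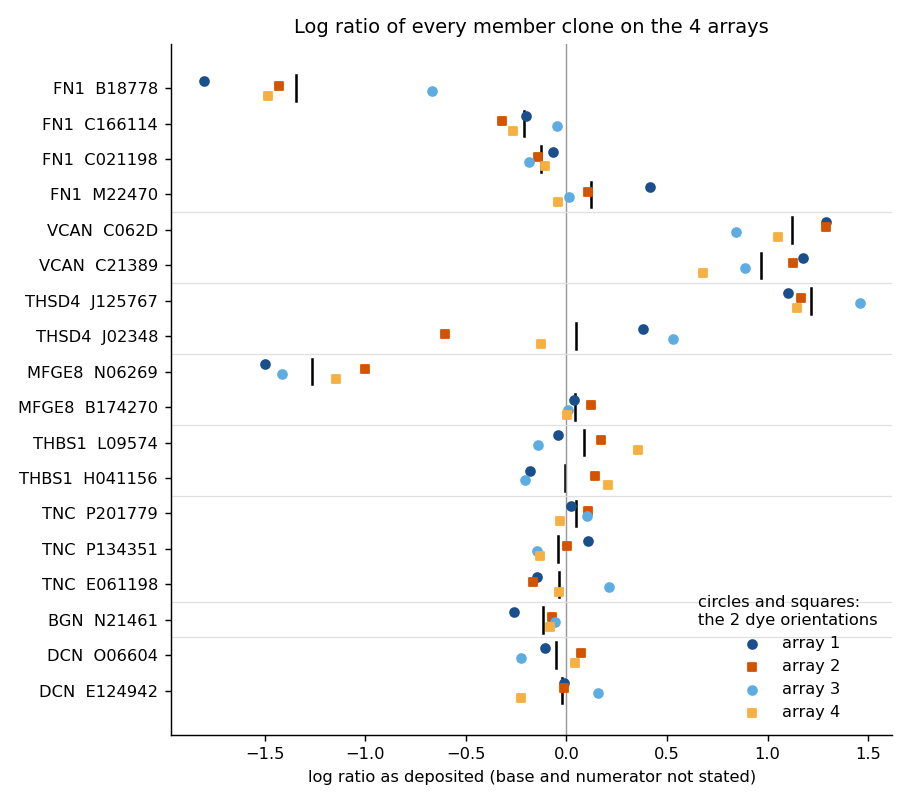
Deposited log ratio (horizontal axis) of each of the 18 member clones on the 4 arrays; circles are arrays 1 and 3, squares arrays 2 and 4, and the vertical bar is the mean. Clone names are shortened. The clones B18778 of FN1 and N06269 of MFGE8 lie far to the left of 0 on every array. J125767 of THSD4 and both clones of VCAN lie far to the right. The other 13 have means between -0.21 and 0.12, with single values from -0.60 to 0.53.

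FN1 encodes fibronectin, the adhesive glycoprotein that integrins assemble into fibrils. Its clone IMAGp998B18778 had log ratios of -1.80, -1.43, -0.67 and -1.48 on arrays 1 to 4. All were negative, and array 3 lay nearest to 0. The mean was -1.35 ± 0.48 (SD, n = 4), the widest spread among the 5 clones, and by size it ranked 6 among all probes. On single arrays the clone ranked 1, 18, 131 and 5 by size. Without array 3 the fitted shared component was -1.63, and without array 1 it was -1.06.

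The other FN1 clones did not show this. Clone IMAGp998C166114 had -0.20, -0.32, -0.047 and -0.27 (mean -0.21 ± 0.12, SD, n = 4). Clone IMAGp998C021198 had -0.067, -0.14, -0.19 and -0.11 (mean -0.13 ± 0.05, SD, n = 4). Both were negative on every array, at a small part of the size. Clone IMAGp998M22470 had 0.42, 0.11, 0.015 and -0.041 (mean 0.12 ± 0.20, SD, n = 4), and so was positive on 3 arrays, mostly through array 1. The clone means of this gene spanned 1.47. The sources do not place the clones along the fibronectin transcript. Averaged over the 4 clones, FN1 stood at -0.39 ± 0.11 (SD, n = 4), and all 4 array averages were negative (-0.41, -0.45, -0.22 and -0.48). This average rested mostly on clone IMAGp998B18778 (mean -1.35), and the means of the other clones lay between -0.21 and 0.12.

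MFGE8 encodes lactadherin, a secreted glycoprotein that bridges phosphatidylserine on dying cells to integrins of phagocytes. Its clone IMAGp998N06269 had log ratios of -1.50, -1.003, -1.41 and -1.14 (mean -1.27 ± 0.23, SD, n = 4). Every array was strongly negative, and arrays 1 and 3 lay below arrays 2 and 4 without overlap. The alternating component of this clone did not pass (limma adjusted p = 0.0686). The other clone, IMAGp998B174270, had 0.039, 0.12, 0.0069 and 0.0032 (mean 0.042 ± 0.054, SD, n = 4), small and positive throughout. The clone means differed by 1.31, so the gene average of -0.61 ± 0.13 described neither clone.

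VCAN encodes versican, a large chondroitin sulphate proteoglycan that binds hyaluronan. Clone RZPDp1096C062D had log ratios of 1.29, 1.29, 0.84 and 1.05 (mean 1.12 ± 0.22, SD, n = 4). Clone IMAGp998C21389 had 1.18, 1.12, 0.89 and 0.68 (mean 0.97 ± 0.23, SD, n = 4). In both clones arrays 1 and 2 were higher than arrays 3 and 4, and no value came near 0. The clone means differed by 0.15, less than the SD of either. VCAN was thus the member whose clones repeated a large log ratio. Among all genes with several clones and at least 1 clone of size 0.5 with 1 sign, 57 in number, 7 had a further clone of that size and sign (12.3%). VCAN is among these 7 and was named with its means known, so the share is given as a description only.

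THSD4 encodes a secreted protein with thrombospondin repeats, also called ADAMTSL6, that binds fibrillin 1 in microfibrils. Clone IMAGp998J125767 had log ratios of 1.10, 1.17, 1.46 and 1.15 (mean 1.22 ± 0.16, SD, n = 4). Array 3 was highest and the other 3 lay close together, the narrowest spread of the 5 clones. The other clone, IMAGp998J02348, had 0.38, -0.60, 0.53 and -0.13 (mean 0.045 ± 0.52, SD, n = 4). Its values were positive in 1 dye orientation and negative in the other. The gene average was 0.63 ± 0.31.

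THBS1 encodes thrombospondin 1, a matricellular glycoprotein that restrains angiogenesis and activates latent TGF-beta. Clone IMAGp998H041156 had log ratios of -0.18, 0.14, -0.21 and 0.21 (mean -0.0086 ± 0.22, SD, n = 4). Clone IMAGp998L09574 had -0.042, 0.17, -0.14 and 0.35 (mean 0.085 ± 0.22, SD, n = 4). In both, arrays 1 and 3 were negative and arrays 2 and 4 positive, so the orientations did not overlap and the means lay near 0. Neither clone passed in the alternating component (limma adjusted p = 0.065 and 0.0897). That component outweighed the shared one in 60.6% of all probes, and the share of all probes without overlap is not given.

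TNC encodes tenascin C, an adhesion-modulating glycoprotein of remodelling tissue and tumour stroma. Its 3 clones had means of 0.050 ± 0.066, -0.040 ± 0.12 and -0.035 ± 0.17 (SD, n = 4). Single values ran from -0.17 to 0.21, and no clone kept 1 sign. Tenascin C therefore showed no mean larger than the spread between arrays.

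The small leucine-rich proteoglycans BGN (biglycan) and DCN (decorin), which bind collagen and growth factors, also stayed near 0. Biglycan's clone IMAGp998N21461 had -0.26, -0.073, -0.056 and -0.080 (mean -0.12 ± 0.10, SD, n = 4). All 4 were negative, and array 1 stood apart from the other three. Decorin's clone IMAGp998E124942 had -0.013, -0.014, 0.16 and -0.23 (mean -0.024 ± 0.16, SD, n = 4). Its clone IMAGp998O06604 had -0.10, 0.071, -0.22 and 0.042 (mean -0.054 ± 0.14, SD, n = 4). Neither decorin clone kept 1 sign.

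The sum of a clone's squared log ratios can be split exactly between the shared component, the alternating component and the rest. The shared component held between 91.2% and 98.7% of it in the 5 large clones, and a median of 16.1% over all probes. The smaller FN1 clones IMAGp998C021198 and IMAGp998C166114 also had most of their squares there, 88.9% and 80.6%. At the other end, the alternating component held 98.1% in the THBS1 clone IMAGp998H041156 and 71.3% in the other, 83.6% in the THSD4 clone IMAGp998J02348 and 72.0% in the DCN clone IMAGp998O06604. The alternating share exceeded the shared one in 6 of 18 member clones and in 60.6% of all probes. The members' own share again follows partly from their choice.

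**Figure D2:**
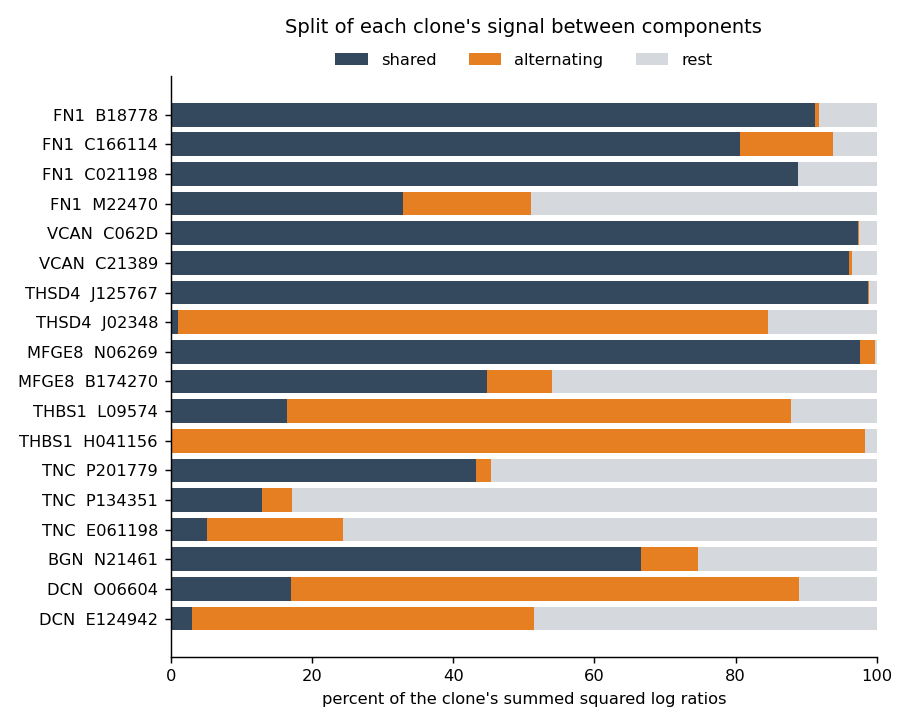
Percent of each member clone's summed squared log ratios (horizontal axis) that falls in the shared component, the alternating component and the rest. The 5 large clones are 91.2% to 98.7% shared, while THBS1 H041156 is 98.1% alternating and the TNC clones are mostly rest.

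The alternating component is orthogonal to the mean that chose the members, and it was tested over all probes. Of the 18 member clones 1 passed (5.56%), against 4.28% of all 26629 probes, a share near the background. That clone was IMAGp998J02348 of THSD4, with an alternating component of 0.41 ± 0.076 (SE, n = 4 arrays; limma adjusted p = 0.029). Its values of 0.38 and 0.53 on arrays 1 and 3 lay above -0.60 and -0.13 on arrays 2 and 4. The call was lost without array 2 (0.29, limma adjusted p = 0.133) and without array 3 (0.37, limma adjusted p = 0.0508). The large THSD4 clone had an alternating component of 0.062 (limma adjusted p = 0.574).

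The clones next in order were those of THBS1, at -0.19 (limma adjusted p = 0.065) and -0.18 (adjusted p = 0.0897), and the large MFGE8 clone, at -0.19 (adjusted p = 0.0686). None of these 3 passed. The large FN1 clone had 0.11 (limma adjusted p = 0.656). It had 0.40 when array 1 was left out, which leaves array 3 alone in its orientation. The sign turned without array 3 (-0.17) and with quantile normalization (-0.15). Both VCAN clones were close to 0 here, at -0.053 and 0.066. At an unadjusted p under 0.05 there were 4 of 18 member clones (22.2%) and 25.2% of all probes. The median size of the alternating component was 0.076 over the members and 0.074 over all probes.

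**Figure D3:**
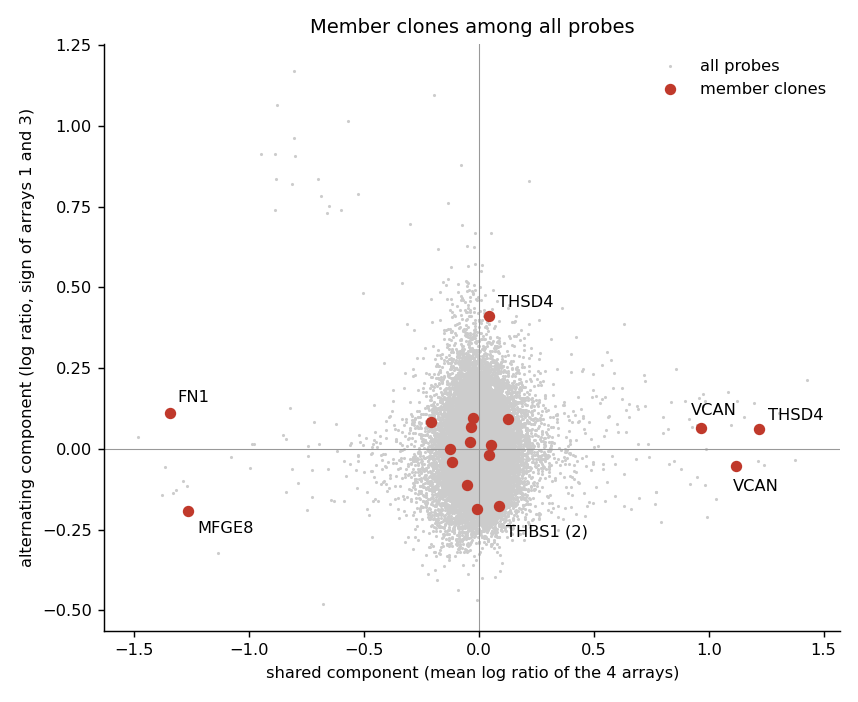
Shared component (horizontal axis, mean log ratio of the 4 arrays) against alternating component (vertical axis, log ratio with the sign of arrays 1 and 3) for all 26629 probes in grey and the 18 member clones in red. The 5 large clones lie far out along the horizontal axis with vertical values between -0.19 (MFGE8) and 0.11 (FN1), whereas THSD4 J02348 (0.41) and the THBS1 clones (-0.18 and -0.19) lie near 0 horizontally.

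The probes most like each large clone were found by the Euclidean distance between their 4 log ratios, over clones of other genes with 1 symbol. For FN1 IMAGp998B18778 the nearest were the collagen chain COL11A1 (distance 0.69, mean -1.37), the transcription cofactor LBH (0.83, mean -1.38) and the basement membrane collagen chain COL4A6 (0.87, mean -1.29). None of these 3 shared the weaker value of FN1 on array 3, where they had -1.26, -1.41 and -1.35 against -0.67. For MFGE8 IMAGp998N06269 the nearest were the kinase gene PLK2 (0.17, mean -1.27) and both clones of COL4A6 (0.19 and 0.22). The 3 followed its smaller size on array 2, at -1.12, -1.13 and -1.03 against -1.003.

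On the positive side, the nearest to VCAN RZPDp1096C062D were the fibrinogen gamma chain FGG (0.32, mean 1.03), the scaffold protein AKAP12 (0.41, mean 0.99) and the receptor NOTCH3 (0.41, mean 1.10). For THSD4 IMAGp998J125767 they were both clones of the sodium pump subunit ATP1B3 (0.18 and 0.23, means 1.15 and 1.24) and the EGF receptor inhibitor ERRFI1 (0.22, mean 1.31). Such distances rest on the same 4 arrays for every probe, and they say little beyond a like mean.

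**Figure D4:**
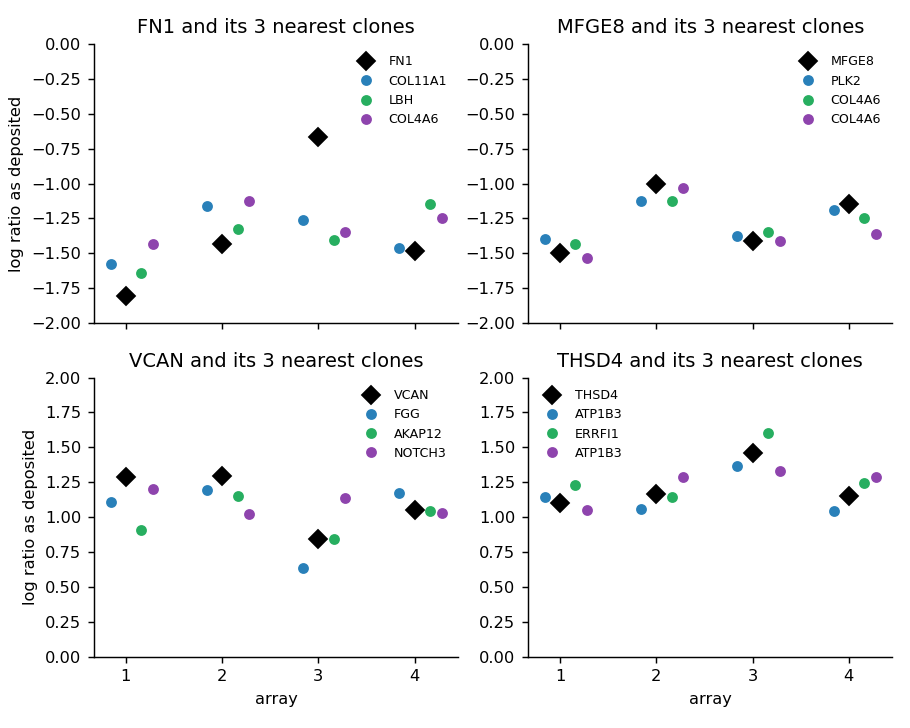
Deposited log ratios (vertical axis) on arrays 1 to 4 (horizontal axis) of the large clone of FN1, MFGE8, VCAN and THSD4 (black diamonds) and the 3 probes nearest to each by Euclidean distance (coloured circles, set slightly aside). FN1 departs from its neighbours on array 3, at -0.67 against -1.26 to -1.41, while MFGE8 and THSD4 stay close to theirs.

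Other genes of the matrix were taken from 4 textbook lists that leave the members out. The lists held 242 clones of 133 genes, of which 5 clones passed an adjusted p of 0.05 in limma in the shared component, 2 positive and 3 negative. This was 2.07%, as over all probes, of which 1.12% passed with positive and 0.946% with negative values. Without array 2 there were 3, and without array 3 there were 9. The median of the 242 clones was 0.00049 and that of all probes 0.0081. The members left out had been named with such means known, and the lists were chosen with earlier results known. The match with all probes therefore does not describe matrix genes as a whole.

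Of 55 measured matrix glycoproteins with 96 clones, 2 passed. MATN2, a matrilin that forms filaments, had -0.41, -0.36, -0.39 and -0.64 (mean -0.45 ± 0.13, SD, n = 4; limma adjusted p = 0.00371). SMOC1, a relative of SPARC in basement membranes, had 0.33, 0.36, 0.97 and 0.30 (mean 0.49 ± 0.32; adjusted p = 0.0253). Every value kept its sign in both. Array 3 stood far above the others in SMOC1, and its call was lost without array 2 (adjusted p = 0.0649). The other MATN2 clone had a mean of -0.031 (adjusted p = 0.858).

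Of 30 measured proteoglycans and link proteins with 50 clones, 2 passed, both negative. GPC1, a membrane-anchored heparan sulphate proteoglycan, had -0.58, -0.35, -0.52 and -0.34 (mean -0.45 ± 0.12, SD, n = 4; limma adjusted p = 0.00129). SPOCK1, a secreted testican with a SPARC-like domain, had -0.71, -0.66, -0.39 and -0.49 (mean -0.56 ± 0.15; adjusted p = 0.0016). No value of either clone lay above -0.34, and both calls held when any 1 array was left out. The second SPOCK1 clone had a mean of -0.010 (adjusted p = 0.955).

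Among 20 receptors of the members with 47 clones, ITGB5, the beta 5 integrin chain that binds vitronectin and lactadherin, passed with 0.24, 0.22, 0.58 and 0.20 (mean 0.31 ± 0.18, SD, n = 4; limma adjusted p = 0.0395). All 4 were positive, with array 3 far above the rest. The call was lost without array 2 (adjusted p = 0.184), 3 (adjusted p = 0.0621) or 4 (adjusted p = 0.164), and with each array centred on its median (adjusted p = 0.0502). Its other clone stood at -0.12. Of 29 measured genes of glycosaminoglycan synthesis with 51 clones none passed in limma, and 4 clones had an unadjusted p under 0.05. The share of all probes at that unadjusted cut is not given for this component, so nothing is read from the 4. EXT1 (0.13, adjusted p = 0.358) and UGDH (-0.23, adjusted p = 0.364) had the largest moderated statistics. The other 6 EXT1 clones had means between -0.12 and 0.050.

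**Figure D5:**
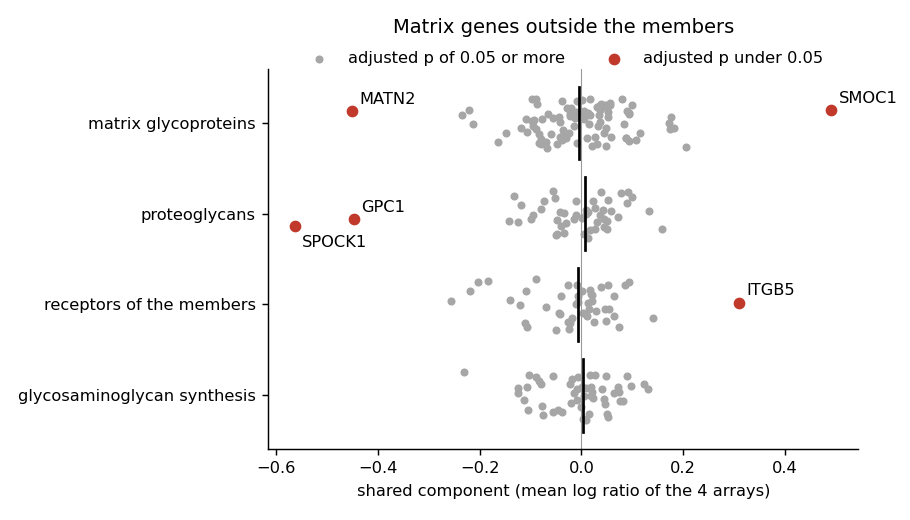
Shared component (horizontal axis, mean log ratio of the 4 arrays) of the clones of 4 lists of matrix genes outside the members; each dot is a clone, spread vertically for visibility, and the black bar is the list median. Red dots passed an adjusted p of 0.05 over all probes: MATN2, SPOCK1 and GPC1 on the negative side, SMOC1 and ITGB5 on the positive side.

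In the alternating component 10 of the 242 clones passed, 8 positive and 2 negative (4.13%, against 4.28% of all probes). Without array 2 there were 2, and without array 4 there were 3. They included 2 of 3 clones of SPARCL1, a SPARC relative (0.44 and 0.24), and 2 of 4 clones of the large neuronal glycoprotein RELN (0.49 and 0.25). Single clones of FBN1, LTBP1, SELP and MET were positive, at 0.23, 0.30, 0.35 and 0.29, and single clones of SLIT1 and LRP5 negative, at -0.25 and -0.24. The other clones of LTBP1, MET and SLIT1 did not pass and had the opposite sign. Those of FBN1 and LRP5 did not pass either and had mixed signs. These genes were named because they passed, after their values were seen. None of the proteoglycans and none of the glycosaminoglycan genes passed in limma. Before adjustment, 11 of 50 and 11 of 51 of their clones had a limma p below 0.05, against 25.2% of all probes.

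Markers of fibroblasts, endothelial cells and blood cells, and of A549 and alveolar type II cells, were read beside the members. None of 11 clones of 9 fibroblast markers passed in limma in the shared component, and 0 had an unadjusted p under 0.05. Their means lay between -0.073 and 0.12. Of 12 clones of 9 endothelial markers none passed in limma in that component and 2 had an unadjusted p under 0.05. Their means lay between -0.16 and 0.14. The share of all probes at that unadjusted cut is not given for the shared component, so nothing is read from these counts. Among 9 clones of 6 blood cell markers 1 passed in limma (11.1%), that of NKG7 (-0.26, adjusted p = 0.031). Among 16 clones of 12 A549 and alveolar markers 1 passed in limma (6.25%), that of keratin 8, KRT8 (0.39, adjusted p = 0.00873). The means of these 16 clones lay between -0.29 and 0.39 with a median of 0.021. Over all probes 2.07% passed in the shared component, and 1 clone is a large part of lists this short. In the alternating component 1 of the 12 endothelial clones passed (8.33%, against 4.28% of all probes), that of ESAM (-0.31, limma adjusted p = 0.022). None of the fibroblast, blood cell or A549 and alveolar clones did. In these 3 lists 4 of 11, 2 of 9 and 4 of 16 clones had an unadjusted p under 0.05, against 25.2% of all probes. The part of any other cell type in the member values was not tested.

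Promoters are shown for 3 of the 4 genes with a large clone. THSD4 is left out, because the table lists 3 starts for it and the sources do not tie its clones to any of them. The RefSeq windows (GRCh38.p14) matched 8 of the 9 genes by symbol, all but DCN. The 250 bases before the annotated start were searched on both strands for the GC box GGGCGG, the CCAAT box CCAAT, the TATA box TATAAA, the cyclic AMP response element TGACGTCA and the AP-1 site TGANTCA. Among 35116 windows of this length 42.6% held the GC box, 32.0% the CCAAT box, 10.7% the TATA box, 1.65% the cyclic AMP element and 6.57% the AP-1 site. The windows of FN1 (chr2:215436069-215436318, minus strand), MFGE8 (chr15:88913380-88913629, minus strand) and VCAN (chr5:83471494-83471743, plus strand) follow, 5′ to 3′ on the gene's strand, with every match in capitals.

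FN1: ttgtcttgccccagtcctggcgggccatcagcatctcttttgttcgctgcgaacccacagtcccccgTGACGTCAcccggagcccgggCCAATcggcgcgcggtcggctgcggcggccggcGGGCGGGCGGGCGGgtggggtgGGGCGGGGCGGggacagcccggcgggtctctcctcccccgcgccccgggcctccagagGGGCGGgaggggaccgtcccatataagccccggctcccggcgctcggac

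MFGE8: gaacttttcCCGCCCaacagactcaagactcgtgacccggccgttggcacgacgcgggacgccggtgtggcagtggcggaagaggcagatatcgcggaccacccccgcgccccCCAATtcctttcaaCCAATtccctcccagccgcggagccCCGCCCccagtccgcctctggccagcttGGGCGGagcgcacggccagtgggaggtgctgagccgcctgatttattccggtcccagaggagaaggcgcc

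VCAN: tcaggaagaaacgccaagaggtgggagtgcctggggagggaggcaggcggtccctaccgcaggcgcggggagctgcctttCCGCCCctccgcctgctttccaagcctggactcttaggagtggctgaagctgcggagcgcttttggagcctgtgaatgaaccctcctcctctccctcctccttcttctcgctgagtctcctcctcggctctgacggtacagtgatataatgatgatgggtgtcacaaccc

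The FN1 window held 6 GC boxes, several of them overlapping, 1 CCAAT box and 1 cyclic AMP element, which lay 183 to 176 bases before the start. The MFGE8 window held 3 GC boxes and 2 CCAAT boxes, and the VCAN window 1 GC box and none of the other 4. The GC content was 76.4% in FN1, 67.6% in MFGE8 and 60.8% in VCAN, against a median of 58.0% over all windows. None of the 3 held the TATA or AP-1 letters. For MFGE8 the table lists 2 starts with overlapping windows, and the outer one is shown. A match describes letters only, and the arrays did not measure binding or promoter activity.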

How the data were processed

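Total RNA was amplified and labelled with Cy3 or Cy5, per the labels' protocols. Per the series design text, the authors used ArrayMagic with variance-stabilizing normalization on the scanned arrays. The deposited values are log ratios whose base (log2 or natural log) is not stated, 1 column per array. Versions, spot filters and intensities are not stated, so dim clones could not be filtered, and the normalization compresses their ratios.

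The values were used unchanged. Of 20976 probes with 1 symbol (848 had several, 4805 none), 20963 matched the GRCh38.p14 gene table by gene ID. limma 3.58.1 under R 4.3.3 fitted an intercept and a dye orientation term to each probe, which leaves 2 residual degrees of freedom plus 7.22 from empirical Bayes moderation. P-values were two-sided and adjusted by Benjamini-Hochberg over the 26629 probes, with a threshold of 0.05. The fit was tested on simulated data. The ± values are SDs over the 4 arrays unless marked SE.

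The members and lists were chosen with earlier results of these data known. Named genes are all member clones, list clones past the threshold in the shared component, and the 3 nearest probes of 4 member clones. Where no clone of a matrix list passed, the 2 with the largest statistic are named, but this was not done for the marker lists. List and marker clones past the threshold in the alternating component are named too, after their values were seen. Settings varied were the dye term (left out), the scaling (median centring, median absolute deviation, quantile), the moderation (robust or none), the probes (those with 1 symbol, or averaged per gene), the threshold and the arrays (each left out). Figures were drawn with matplotlib 3.10.9.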

Additional observations from a re-analysis of the deposited data

Results flagged for a closer look

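In 3 of 25 clones checked, 1 of the 4 arrays lay far from the other three, by a gap that took up most of the clone's range. Chance alone gives such a gap in about 1 of 20 groups. The BGN clone IMAGp998N21461 had -0.26 on array 1, against -0.080 to -0.056 on the others. The SMOC1 clone had 0.97 and the ITGB5 clone 0.58 on array 3.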

How the results depend on the processing

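The 5 large member clones kept their size of at least 0.5 and their sign under centring, scaling, quantile normalization and without each array in turn. They had been picked for that size and for 1 sign on all 4 arrays. Scaling or leaving out an array could therefore not change their sign, and nothing is read from it. Under quantile normalization the large MFGE8 clone moved from -1.27 to -1.64, and the large FN1 clone from -1.35 to -1.64. Of the 18 members 1 clone passed in the alternating component, and 0 did without the dye term, without moderation, with probes averaged per gene or at 0.01. There were 2 with quantile normalization, 4 at 0.1, and 0 to 2 without 1 array. Of the other matrix clones 5 passed in the shared component, 3 without the dye term, 0 without moderation, 3 at 0.01, 9 at 0.1 and 3 to 9 without 1 array. In the alternating component 10 passed, 2 without the dye term, 0 without moderation, 2 with probes averaged per gene, 0 at 0.01, 27 at 0.1 and 2 to 15 without 1 array. Over all probes 550 passed in the shared component, 231 without the dye term, 0 without moderation, 248 at 0.01, 867 at 0.1 and 271 (array 2 left out) to 884 (array 3 left out), with 286 when array 4 was left out. In the alternating component 1141 passed, 102 without the dye term, 4 without moderation, 411 with probes averaged per gene, 24 at 0.01, 3154 at 0.1 and 113 (array 2 left out) to 1874 (array 1 left out), with 138 when array 4 was left out. Without moderation 2 residual degrees of freedom remain; the causes of the other changes were not tested. Each log ratio already sets both cultures of its array against each other, so no further pairing was added. The number of arrays limits the precision.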
